A study of Mus musculus with 2 samples.

Results

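The 7 genes described here encode the main cannabinoid receptor of the brain and the enzymes that make and break down its lipid ligands. They were chosen by name, as the rows of the count matrix with the symbols Cnr1, Dagla, Daglb, Napepld, Mgll, Abhd6 and Faah, and each symbol matched 1 row among 31040 genes. Their RNA was counted in single nuclei of the prefrontal cortex, taken from wild-type male C57BL/6 mice aged 2 months. Animals of the METH group received 5 mg/kg METH by intraperitoneal injection for 14 days, and animals of the Control group received saline by the same route for the same time. Each group had 3 mice and 1 library, and nuclei of the 3 mice cannot be told apart. Barcodes of both libraries share 1 matrix, and nothing in the labels or files says which library is METH and which is Control. They are therefore called library 1 and library 2, and METH was not compared with Control.

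Endocannabinoids are lipid messengers that neurons make on demand from membrane phospholipids. In the best known form of this signal, the postsynaptic cell releases 2-arachidonoylglycerol, which travels backwards across the synapse and binds the receptor encoded by Cnr1 on the axon terminal, where it lowers transmitter release. Diacylglycerol lipases (Dagla, Daglb) make 2-arachidonoylglycerol, and monoacylglycerol lipase (Mgll) and Abhd6 hydrolyse it. A separate branch uses a phospholipase D (Napepld) to release anandamide and related N-acylethanolamines, which fatty acid amide hydrolase (Faah) breaks down. In the cortex the receptor is known above all from the terminals of cholecystokinin (CCK) basket cells, a type of inhibitory interneuron.

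The matrix held 31273163 UMIs (unique molecular identifiers, each standing for 1 captured RNA molecule) in library 1 and 35292937 in library 2, and 154 barcode sequences occurred in both. After filtering and removal of called doublets, 7928 nuclei of library 1 and 9999 of library 2 remained. Clusters were named from marker genes, with the 7 members kept out of the genes used for clustering. Named classes of at least 100 nuclei were excitatory neurons (7969), oligodendrocytes (3080), inhibitory neurons (2892), striatal projection neurons (1411), microglia (882), oligodendrocyte precursors (367) and astrocytes (308), and 676 nuclei stayed unnamed. Among these 7 classes, all markers of microglia, astrocytes, oligodendrocytes, precursors and striatal projection neurons were highest in their own class, against 8 of 9 for inhibitory and 6 of 8 for excitatory neurons. Slc17a7, the vesicular glutamate transporter of excitatory neurons, stood at 373 UMIs in every 1000000 in their nuclei and 431 in microglia, and its level in cells that should lack it was used to gauge free RNA in the droplets. Striatal projection neurons, which the label of prefrontal cortex does not name, made up 5.36% of nuclei in library 1 and 9.86% in library 2. Within the neuron classes, 15 subclasses of at least 100 nuclei were named, and 3008 nuclei had no subclass. Marker support for these names was uneven. Over the 15, the markers highest in their own subclass ran from 1 of 6 (layer 5 intratelencephalic) and 2 of 7 (deep-layer intratelencephalic) to 7 of 8. Summed markers were higher in another subclass for layer 5 intratelencephalic (1009 against 745 CPM), layer 4/5 intratelencephalic (2662 against 1885) and VIP interneurons (16770 against 13358).

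A level below is in CPM, the number of UMIs of a gene in every 1000000 UMIs of a cell type, summed over nuclei, with an exact Poisson 95% interval that covers counting error only. With 1 library per group and no map from library to group there was no test between conditions, and since nuclei do not stand for replicate animals no p-value was computed. The spread between the libraries is shown by giving both. An upper limit for free RNA was computed for each type, and a level is called above free RNA where its interval lies above that limit. The class with the lowest upper 95% bound of a gene relative to the free RNA index set that gene's limit and by construction cannot exceed it. Oligodendrocytes set it for Cnr1, Dagla, Daglb, Mgll and Abhd6, astrocytes for Faah and striatal projection neurons for Napepld. A gene had a clear highest class where its level was at least 2-fold that of the next class, the interval of the ratio lay above 1 and both libraries gave the same class. For subclasses a fold of 1.5 was used. Types under 100 nuclei were left out of this rule, and of the orders below unless named. Over all genes of at least 50 UMIs, 2490 of 15818 (15.7%) had a clear highest class and 882 of 14732 (5.99%) a clear highest subclass. Among the members, 1 of 7 had a clear highest class (Daglb), close to the share over all genes, and 2 of 7 a clear highest subclass (Cnr1 and Mgll). The median ratio of the highest class to the next was 1.47 for the members and 1.29 for all genes tested.

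The DNA just upstream of these 3 genes is shown here because their RNA had a clear highest type, and each run is the 250 bases before a RefSeq start site on GRCm38.p6, in lower case with GC boxes in capitals (GGGCGG on either strand).
Cnr1 (plus strand, chr4:33924014-33924263): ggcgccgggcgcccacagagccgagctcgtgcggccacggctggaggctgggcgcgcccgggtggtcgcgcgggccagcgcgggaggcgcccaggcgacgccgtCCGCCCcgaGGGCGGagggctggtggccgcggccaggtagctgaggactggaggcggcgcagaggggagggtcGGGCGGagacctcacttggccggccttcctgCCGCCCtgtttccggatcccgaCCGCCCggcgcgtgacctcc
Daglb (plus strand, chr5:143464243-143464492): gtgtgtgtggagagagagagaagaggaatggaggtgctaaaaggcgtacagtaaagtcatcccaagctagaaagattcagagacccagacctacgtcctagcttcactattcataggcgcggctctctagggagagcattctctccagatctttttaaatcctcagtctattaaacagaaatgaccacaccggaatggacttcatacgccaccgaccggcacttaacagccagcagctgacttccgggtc
Mgll (plus strand, chr6:88724162-88724411): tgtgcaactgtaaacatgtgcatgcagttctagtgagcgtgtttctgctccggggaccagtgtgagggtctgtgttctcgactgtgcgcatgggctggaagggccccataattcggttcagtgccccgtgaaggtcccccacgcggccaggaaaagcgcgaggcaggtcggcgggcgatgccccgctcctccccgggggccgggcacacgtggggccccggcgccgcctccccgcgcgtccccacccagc
The Cnr1 run had a GC content of 79.2% with 36 CpG dinucleotides and 5 GC boxes, the Daglb run 49.2% with 9 CpG and none, and the Mgll run 68.0% with 23 CpG and none. These values depend on the start site chosen. The Cnr1 run ends 329 bases from the GENCODE start, and Cnr1 windows at 51 (68.8% GC) and 1787 bases (49.2%) held no GC box. Another Mgll window, at 292 bases, had 74.8% GC, 40 CpG and 1 GC box. Over 32851 such windows of the genome the median was 52.4% with 6 CpG, and 32.7% of windows held a GC box. RefSeq windows were matched for 6 of the 7 members, 10 windows in all, of which 4 held a GC box. None of the 10 held TATAAA (12.4% of all windows), TGACGTCA (1.55%) or GAGGAAGT (2.44%) on either strand. In the GENCODE models on GRCm38, Cnr1 spans chr4:33924593-33948831 on the plus strand and Faah chr4:115967145-116017926 on the minus strand. Dagla lies at chr19:10245265-10304877 (minus), Daglb at chr5:143464584-143505942 (plus) and Napepld at chr5:21662901-21701396 (minus). Mgll spans chr6:88724412-88828360 (plus) and Abhd6 chr14:8002902-8056763 (plus).

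Cnr1, the receptor gene, was highest among classes in both kinds of GABA-releasing neuron. In striatal projection neurons its level was 94.9 CPM in library 1 and 149.8 in library 2, pooled 134.9 (123.6 to 147.0). In inhibitory neurons it was 101.1 in library 1 and 161.2 in library 2, pooled 134.8 (127.3 to 142.6). The pooled ratio of 1.001 (0.902 to 1.11) does not set the order of these classes, though inhibitory neurons were the higher in each library. Both were 2.48-fold above excitatory neurons (intervals 2.25 to 2.73 and 2.30 to 2.66), which stood at 43.4 in library 1 and 64.5 in library 2. Oligodendrocytes, microglia, precursors and astrocytes lay between 50.7 and 62.6. Oligodendrocytes set the free RNA limit, and the other 3 were not above theirs, at 54.0 to 72.9. The 3 neuron classes were above theirs, at 18.1 to 30.4. Excitatory neurons, by far the most numerous class, gave 49.5% of all Cnr1 UMIs and 65.7% of UMIs of all genes, while inhibitory neurons gave 29.4% and 15.8%.

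**Figure D1:**
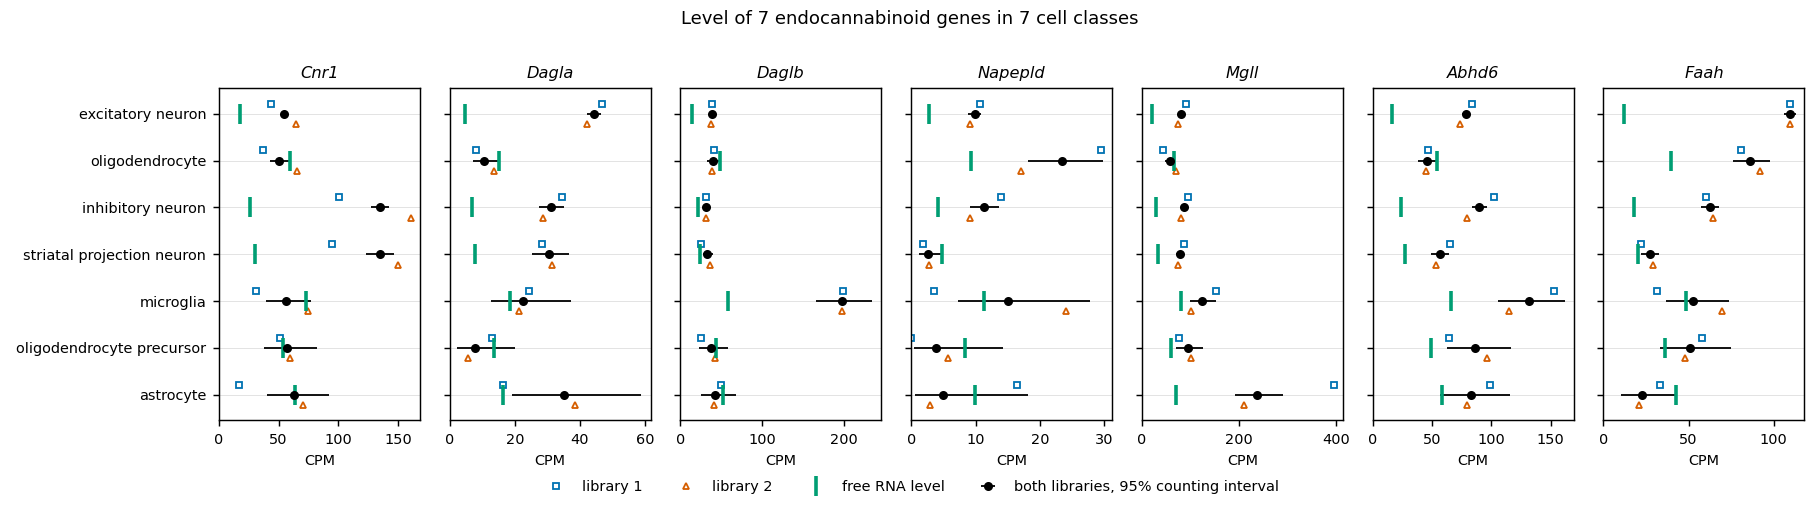
Levels in CPM (x axes, linear, from 0) in 7 classes (rows), 1 panel per gene, with both libraries pooled and their 95% counting interval (black), library 1 (squares), library 2 (triangles) and the free RNA level (green bars). Cnr1 lies furthest right in inhibitory and striatal projection neurons, and Daglb stands out in microglia at 198. Mgll is highest in astrocytes at 238, under 2-fold the next class drawn, and differentiating oligodendrocytes are not drawn.

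Among subclasses Cnr1 was concentrated in a group of 122 nuclei with CCK basket or Sncg interneuron markers. The level there was 876 CPM in library 1 and 1298 in library 2, pooled 1130 (1029 to 1239). VIP interneurons, which mostly inhibit other interneurons, came next at 243 in library 1 and 330 in library 2, pooled 288 (248 to 333). Both libraries of the CCK group were above both libraries of every other subclass, and the pooled ratio to VIP interneurons was 3.93 (3.30 to 4.69). Of 8 markers fixed for this group 7 were highest in it, among them Cck at 1885 and Sncg at 27.2 CPM, while Vip was at 732 there and 3664 in VIP interneurons. These nuclei were 4.22% of inhibitory neurons and held 37.9% of their Cnr1 UMIs. Without them the inhibitory class fell to 68.0 CPM in library 1 and 103.1 in library 2, pooled 87.6.

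Cnr1 was unevenly spread over the CCK nuclei themselves. A Cnr1 UMI was found in 89 of 122 (73.0%, Clopper-Pearson 95% interval 64.2% to 80.6%), the median was 2 UMIs and the highest 50, and 33 nuclei had none. Microglia, which should lack the gene, had a UMI in 4.20% of nuclei at a median depth of 693 UMIs against 3106 in CCK nuclei. Thinned to 600 UMIs per nucleus, the shares were 37.4% in CCK nuclei, 14.8% in VIP, 2.09% in parvalbumin interneurons and 3.52% in microglia (87 shallower microglia left out). In the whole data set 45 nuclei had at least 5 Cnr1 UMIs, of which 31 were CCK nuclei, and all 13 nuclei with at least 10 were CCK nuclei. Without the nucleus of 50 UMIs, which belonged to library 2, the CCK level was 1018 pooled and 1113 in that library.

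**Figure D2:**
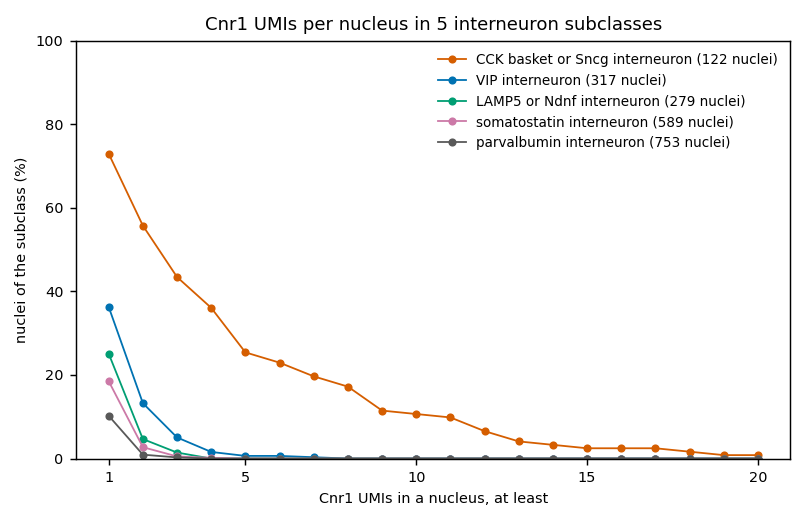
Share of nuclei (y axis, percent) holding at least a given number of Cnr1 UMIs (x axis) in 5 interneuron subclasses, both libraries pooled, not thinned. The CCK line starts at 73.0% and stays above the others at every step, with 25.4% of nuclei at 5 or more.

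Below VIP interneurons the other subclasses formed a slope with few clear steps. Direct-pathway striatal neurons (142), indirect-pathway striatal neurons (120) and LAMP5 or Ndnf interneurons (117 CPM) came next, and neither neighbouring pair among them differed beyond counting error. Layer 5 intratelencephalic (83.9), deep-layer intratelencephalic (81.4) and somatostatin neurons (69.6) followed. Layer 5 extratelencephalic neurons, which project beyond the telencephalon, stood at 54.0, layer 2/3 at 43.7 and layer 4/5 intratelencephalic neurons at 42.4. Parvalbumin interneurons, the other large class of basket cells, were at 27.3 in library 1 and 39.2 in library 2, pooled 33.3 (26.6 to 41.1), and CCK nuclei were 33.9-fold higher (26.9 to 43.3). Layer 6 corticothalamic neurons were at 26.7, and near-projecting (25.3) and layer 6b neurons (14.9) were not above free RNA. Among excitatory subclasses layer 5 intratelencephalic neurons were 5.62-fold above layer 6b (3.81 to 8.60), 10.3-fold in library 1 and 3.63-fold in library 2.

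Clusters within a subclass also differed in Cnr1. The 275 indirect-pathway nuclei led by Penk, Adora2a and Drd2 held 124 CPM in library 1 and 174 in library 2. The other 160 indirect-pathway nuclei held 38.4 and 41.4, on few Cnr1 UMIs among 130056 and 290055 UMIs of all genes. In the direct pathway the 5 clusters ran from 57.5 to 185 pooled. Of the inhibitory clusters without a subclass, 1 of 74 nuclei with Pde3a and Nkx2-1 among its leading genes stood at 263 (198 to 343). An excitatory cluster of 689 nuclei led by Ndst4 and Abi3bp, also without a subclass, had Cnr1 at 103 (92.2 to 114) and Mgll at 23.0 (18.1 to 28.8), the latter not above free RNA. These 4 examples were picked after their values were seen.

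Dagla, the lipase that makes most 2-arachidonoylglycerol at adult synapses, was highest in excitatory neurons. Its level there was 46.6 CPM in library 1 and 42.2 in library 2, pooled 44.3 (42.2 to 46.5). Inhibitory neurons (31.1) and striatal projection neurons (30.6) were lower, with a ratio of excitatory to inhibitory of 1.43 (1.25 to 1.62). Astrocytes stood at 35.1 on 14 UMIs (19.2 to 58.8), which overlaps all 3 neuron classes. Oligodendrocytes stood at 8.1 in library 1 and 13.5 in library 2, and excitatory neurons were 4.15-fold higher (2.91 to 6.12). Excitatory neurons held 75.8% of the Dagla UMIs.

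Over the excitatory subclasses Dagla ran from 38.6 CPM (32.3 to 45.7) in layer 5 extratelencephalic to 59.99 (52.7 to 68.0) in layer 6 corticothalamic neurons, where Cnr1 was among its lowest. In the CCK group, where Cnr1 was highest, Dagla had 3 UMIs, 0 in library 1 and 3 in library 2, a level of 7.4 (1.5 to 21.7) that was not above free RNA. Layer 6 corticothalamic neurons were 8.08-fold higher (2.73 to 39.5), and 4.55-fold in library 2 alone (1.52 to 22.4). Direct-pathway striatal neurons held 35.5 in library 1 and 39.2 in library 2 and indirect-pathway neurons 19.5 and 21.4, a pooled ratio of 1.82 (1.16 to 2.97). For Cnr1 the same ratio was 1.19 (0.97 to 1.46).

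Daglb, the second diacylglycerol lipase, had a clear highest class in microglia, the resident immune cells of the brain. Its level there was 198.4 CPM in library 1 and 197.6 in library 2, pooled 197.9 (165.5 to 234.8) on 131 UMIs, against a free RNA level of 58.7. The other 6 classes of at least 100 nuclei lay between 31.4 and 42.6, with neither library of any of them above 49.5. Microglia were 4.65-fold above astrocytes, the next of these classes (2.80 to 8.22). Some classes under 100 nuclei were above astrocytes on few UMIs. These were neuroblasts (7 of 94937 UMIs), fibroblasts (6 of 100184) and differentiating oligodendrocytes (9 of 166735). Oligodendrocytes set the free RNA limit, precursors and astrocytes were not above theirs, and the neurons, at 31.4 to 38.3, were above theirs. Microglia held 5.88% of Daglb UMIs and 1.17% of all UMIs, and excitatory neurons 64.0% and 65.7%. A Daglb UMI was found in 13.8% of microglia and 15.9% of excitatory neurons as sequenced, and in 11.5% and 2.26% after thinning to 600 UMIs. Neuron subclasses ranged only from 25.3 to 45.0, and neighbouring pairs among the 4 highest did not differ beyond counting error. Among all genes with a clear highest class, microglia were that class for 866 of 2490.

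Napepld, the phospholipase D of the anandamide branch, was the sparsest member with 578 UMIs. Oligodendrocytes, the myelin-forming cells, were highest at 29.6 CPM in library 1 and 17.0 in library 2, pooled 23.5 (18.2 to 29.7). Microglia came next at 15.1 on 10 UMIs, 1 in library 1 and 9 in library 2, and the ratio of 1.55 (0.79 to 3.38) does not set the order. In library 1 the ratio was 8.49 (1.45 to 343) and in library 2, where microglia were higher, 0.708 (0.318 to 1.73). With a minimum of 1000 genes per nucleus the oligodendrocyte level fell to 10.4, near the levels of inhibitory (11.3) and excitatory neurons (9.8) in the main analysis, which were above free RNA. Striatal projection neurons were lowest with 10 UMIs in 1411 nuclei (2.6, 1.2 to 4.7). Oligodendrocytes were 9.13-fold above them (4.67 to 19.9), 15.6-fold in library 1 and 6.04-fold in library 2. Layer 6 corticothalamic (16.3), somatostatin (15.7) and parvalbumin neurons (14.7) were the highest subclasses and did not differ from each other beyond counting error. Layer 6 corticothalamic neurons were 9.06-fold above direct-pathway striatal neurons (3.38 to 34.2), which had 4 UMIs, all in library 2, where the ratio was 5.52.

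Mgll, which encodes the lipase that removes most 2-arachidonoylglycerol, was highest in astrocytes. Its level there was 396 CPM in library 1, on 24 UMIs of 50 nuclei, and 210 in library 2, on 71 UMIs of 258 nuclei, pooled 238 (192 to 291). Microglia followed at 153 in library 1 and 101 in library 2, pooled 124, and the ratio of 1.92 (1.41 to 2.61) fell short of 2. Differentiating oligodendrocytes, with 97 nuclei under the size needed for the comparison, stood at 198 (136 to 278) on 33 UMIs. With doublets kept they were above astrocytes, whose ratio to them was then 0.959 (0.652 to 1.44). Precursors (94.4), inhibitory (87.1), excitatory (81.5) and striatal projection neurons (78.4) formed a plateau whose neighbours did not differ beyond counting error. Mature oligodendrocytes stood at 56.9, and astrocytes were 4.18-fold above them (3.21 to 5.41), 8.92-fold in library 1 and 2.99-fold in library 2. After thinning, 12.7% of astrocytes and 4.66% of excitatory neurons held a Mgll UMI, against 23.1% and 28.6% as sequenced.

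Among neurons Mgll was clearly highest in LAMP5 or Ndnf interneurons, which include the neurogliaform cells of the upper layers. The level was 278 CPM in library 1 and 224 in library 2, pooled 251 (216 to 289), and both values exceeded those of every other subclass. Layer 6b was next at 142 in library 1 and 88.7 in library 2, pooled 119, a ratio of 2.11 (1.73 to 2.57). Of 8 markers fixed for the LAMP5 group 7 were highest in it, among them Lamp5 at 369 and Reln at 1189 CPM. Layer 5 intratelencephalic (119) and layer 6 corticothalamic neurons (114) could not be separated from layer 6b. CCK nuclei, at 99.4 in library 1 and 86.3 in library 2, lay in the middle of the order. Parvalbumin interneurons (48.8), layer 5 extratelencephalic (41.4) and near-projecting neurons (23.5) were lowest, the last not above free RNA. LAMP5 interneurons were 5.14-fold above parvalbumin interneurons (4.08 to 6.49), and layer 6b was 5.07-fold above near-projecting neurons (2.91 to 9.67).

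Abhd6 encodes a second hydrolase of 2-arachidonoylglycerol that acts mainly on the postsynaptic side. Of the 7 classes of at least 100 nuclei, Abhd6 was highest in microglia, at 153 CPM in library 1 and 115 in library 2, pooled 131 (105 to 162). Inhibitory neurons were next at 89.6 and the ratio was 1.47 (1.16 to 1.83). With the free RNA limit subtracted this lead was gone, with microglia at 65.4 and inhibitory neurons at 65.6. Precursors (86.6), astrocytes (82.6), excitatory (78.5) and striatal projection neurons (56.5) followed, and oligodendrocytes were lowest at 45.5. Of these classes astrocytes were not above free RNA, and oligodendrocytes set the limit. Fibroblasts (14 of 100184 UMIs) and neuroblasts (13 of 94937), both under 100 nuclei, had Abhd6 levels no lower than that of microglia. In neurons Abhd6 was highest, as Mgll was, in LAMP5 interneurons, at 151 in library 1 and 152 in library 2, pooled 152 (125 to 182). Layer 2/3 (112) and parvalbumin neurons (107) came next, and LAMP5 was 1.36-fold above layer 2/3 (1.10 to 1.65). The 2 hydrolase genes parted in parvalbumin interneurons, where Abhd6 was among its highest and Mgll among its lowest levels. Parvalbumin were 1.64-fold above somatostatin interneurons for Abhd6 (1.32 to 2.05). Layer 2/3 was 1.92-fold above layer 6 corticothalamic neurons (1.66 to 2.22), which stood at 58.3.

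Faah, the hydrolase of anandamide, was highest in excitatory neurons at 109.8 CPM in library 1 and 109.4 in library 2, pooled 109.6 (106.2 to 113.0). Oligodendrocytes were next at 80.6 and 92.2, pooled 86.2, above their free RNA level of 39.8, and the ratio was 1.27 (1.12 to 1.45). Inhibitory neurons stood at 62.6, and excitatory neurons were 1.75-fold higher (1.60 to 1.91). Striatal projection neurons were lowest of the neurons at 27.2, a ratio of excitatory to striatal of 4.02 (3.32 to 4.93). Astrocytes were lowest with 9 UMIs (22.5, 10.3 to 42.8). Layer 2/3 intratelencephalic neurons were the highest subclass at 150.0 in library 1 and 132.2 in library 2, pooled 140.6, followed by layer 4/5 at 118.8 (ratio 1.18, 1.06 to 1.32). Layers 5 and deeper lay from 64.0 to 106.8, and the 5 interneuron subclasses from 57.7 to 69.2. Indirect-pathway striatal neurons stood at 22.6, not above free RNA, and layer 2/3 was 6.22-fold higher (4.25 to 9.48), 15.4-fold in library 1 and 4.88-fold in library 2.

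**Figure D3:**
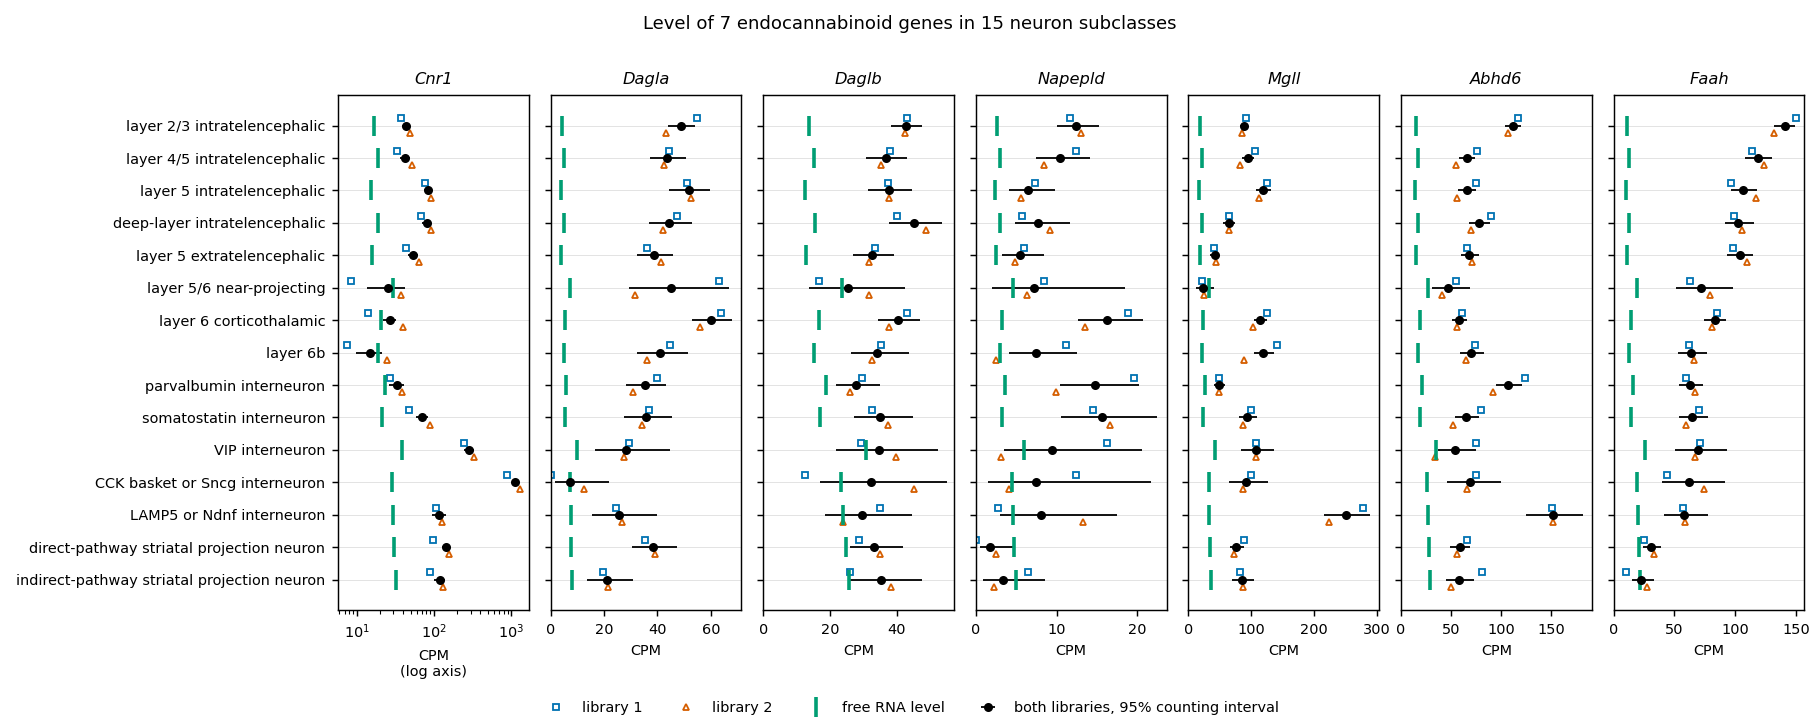
Levels in CPM (x axes, log for Cnr1 and linear from 0 for the others) in 15 neuron subclasses (rows), 1 panel per gene, with pooled values and 95% counting intervals (black), library 1 (squares), library 2 (triangles) and the free RNA level (green bars). Cnr1 stands out in CCK interneurons (1130) and Mgll in LAMP5 interneurons (251). Abhd6 is also highest in LAMP5 interneurons (152) but only 1.36-fold the next subclass, and Faah falls from layer 2/3 (141) to striatal neurons.

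Set side by side by cell type, the members gave distinct profiles. CCK interneurons had the highest Cnr1 and the lowest Dagla of the 15 subclasses, though the Dagla interval there reached past the 20.9 of indirect-pathway striatal neurons. Layer 6 corticothalamic neurons had the highest Dagla and low Cnr1, and pooled were at the top for Napepld without a step to the next subclass. By library, Napepld was highest in parvalbumin (library 1) and somatostatin interneurons (library 2). Striatal projection neurons shared the top of the class order for Cnr1 and were the lowest of the 3 neuron classes for Napepld, Abhd6 and Faah. Of the 7 classes of at least 100 nuclei, microglia were highest for Daglb, and for Abhd6 before free RNA was subtracted. The profile of Cnr1 over the 22 classes and subclasses of at least 100 nuclei had a Pearson r of -0.51 with that of Dagla on the log2(level + 5) scale. Between Napepld and Faah r was 0.56 and between Mgll and Abhd6 0.47. These types share libraries, free RNA and in part nuclei, so r is a description.

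The same measure was used to name the genes most like each member among 10546 genes of at least 500 UMIs. For Cnr1 they were Nr3c2 (r = 0.80), Rgs12 (0.79), Tmem266 (0.77), Fam20c (0.76) and Srm (0.76), all highest in CCK interneurons, Nr3c2, the mineralocorticoid receptor, at 628 CPM. For Daglb they were Slco2b1 (0.94), Arhgap45 (0.94) and Nagpa (0.93), all highest in microglia. For Dagla they were Plec (0.86), Gm40437 (0.85) and Efcab12 (0.82), and for Faah Gtdc1 (0.87), Ptpn3 (0.84) and 4921511C10Rik (0.84). Napepld was most like 2810405F17Rik (0.88), Rufy1 (0.82) and Rsrc1 (0.81), all highest in oligodendrocytes. Mgll was closest to Rpain (0.74), Miip (0.74) and Ranbp2 (0.73), and Abhd6 to Man1a2 (0.79), Selenon (0.76) and Plekho1 (0.76).

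Other genes of the pathway were taken from 5 lists and read with the same rule. Of 9 other endocannabinoid receptors and receptor partners, 5 had enough UMIs and 1 had a clear highest class, against 15.7% of all genes. Cnr2, the second cannabinoid receptor, had 28 UMIs over the 7 classes, 9 of them in microglia (13.6 CPM), too few for the rule. Sgip1 and Cnrip1, which bind the Cnr1 receptor, were broad, with highest-to-next ratios of 1.26 (inhibitory over astrocyte, 1.10 to 1.44) and 1.16 (excitatory over inhibitory, 1.09 to 1.24). Pparg, a nuclear receptor, was 1.65-fold higher in excitatory than in inhibitory neurons (1.49 to 1.82). Of 11 other synthesis genes, 2 had a clear highest class, both in microglia. Plcb1, the phospholipase C that supplies diacylglycerol in many forebrain neurons, was highest in striatal projection neurons at 2509 CPM (ratio to excitatory 1.69, 1.65 to 1.72). Gde1 was highest in oligodendrocytes (243) and Plcb4 in astrocytes (113), and neither differed from the next class beyond counting error.

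Of 8 other breakdown and carrier genes 7 were tested and Abhd12, a further 2-arachidonoylglycerol hydrolase, had a clear highest class. Its level in microglia was 523 CPM, 2.21-fold that of precursors (1.79 to 2.75). Lipe and Fabp5 were highest in astrocytes at 67.6 and 125 without a step to oligodendrocytes. Of 8 receptors that couple to Gq, the route by which glutamate and acetylcholine drive this synthesis, 2 had a clear highest class. Grm5 was highest in striatal projection neurons at 4043 CPM, 2.08-fold inhibitory neurons (2.03 to 2.12) and Chrm3 in excitatory neurons (872, ratio 1.33). Of 11 presynaptic effectors of the receptor 3 had a clear highest class. Rims1, Cacna1a and Kcnj3, of the release machinery, calcium channels and potassium channels, were nearly even between excitatory and inhibitory neurons, with ratios of 1.22, 1.04 (inhibitory higher) and 1.05. The clear genes outside the naming rule, named after their values were seen, were Ppara (astrocyte), Inpp5d and Plcb2 (microglia), Htr2c (striatal), Gnai1 (oligodendrocyte), Arrb2 (microglia) and Kcnj6 (excitatory). Inpp5d was itself a marker used to name microglia. Median ratios of the lists were 1.31, 1.21, 1.21, 1.48 and 1.74 in the order given, against 1.29 for all genes.

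At the level of subclasses 0 of 4, 1 of 10, 1 of 7, 2 of 8 and 0 of 11 tested genes of these lists had a clear highest subclass, against 5.99% of all genes. Among them were Pla2g4e, which makes precursors of anandamide, in LAMP5 interneurons (113 CPM, 1.75-fold VIP, 1.19 to 2.60), Ptgs2 in deep-layer intratelencephalic neurons (12.2), and Oxtr in somatostatin interneurons (15.1). These 3 were chosen after their values were seen. None of the tested list genes was clearly highest in CCK interneurons.

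Cnr1 was higher in library 2 in each type tested. In the 4 classes with at least 50 Cnr1 UMIs library 2 was above library 1, with ratios of 1.49 (1.36 to 1.63) in excitatory, 1.59 (1.41 to 1.80) in inhibitory and 1.58 (1.27 to 1.98) in striatal projection neurons and 1.77 (1.25 to 2.51) in oligodendrocytes. Oligodendrocytes set the free RNA limit of Cnr1, and the part of free RNA in the neuronal ratios was not tested. Library 2 was higher in 13 of 13 subclasses tested, with a counting interval above 1 in 9, a median ratio of 1.48 and a range of 1.18 to 2.83. The largest was in layer 6 corticothalamic neurons, from 14.2 CPM (30 UMIs) to 40.0 (80 UMIs). Free RNA limits were computed for pooled levels only, so whether this low library 1 level lay above free RNA was not tested. In the same 4 classes the median ratio over all genes was between 0.978 and 0.999, and the 95th percentile was 1.59 in excitatory, 1.66 in inhibitory and 1.79 in striatal projection neurons and 2.30 in oligodendrocytes, so that the Cnr1 ratios did not pass the 95th percentile in any of them. Among the subclasses tested, Cnr1 passed it only in layer 6 corticothalamic neurons (2.83, percentile 1.69) and somatostatin interneurons (1.86, percentile 1.77).

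For the enzymes most ratios lay near or below 1. Abhd6 was lower in library 2 in 5 of 5 classes, with an interval below 1 in 2, excitatory (0.88, 0.82 to 0.94) and inhibitory neurons (0.77, 0.67 to 0.89). Mgll was lower in 5 of 6, among them excitatory neurons (0.81, 0.76 to 0.87) and astrocytes (0.53, 0.33 to 0.88), and higher in oligodendrocytes (1.58, 1.15 to 2.20). Napepld was lower in 3 of 3, with the interval below 1 in oligodendrocytes (0.58, 0.33 to 0.97) and inhibitory neurons (0.66, 0.43 to 0.99). Faah in excitatory neurons (0.996, 0.936 to 1.06) and Daglb in microglia (0.996, 0.696 to 1.43) had ratios close to 1. Counting a difference of at least 1.5-fold whose interval excludes 1, 7 of 30 pairs of member and class passed, against 12.8% of 51585 pairs of all genes, and 6 of 70 pairs with subclasses, against 9.75% of 98245. With 1 library on each side, treatment, mice, dissection and library preparation cannot be told apart.

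**Figure D4:**
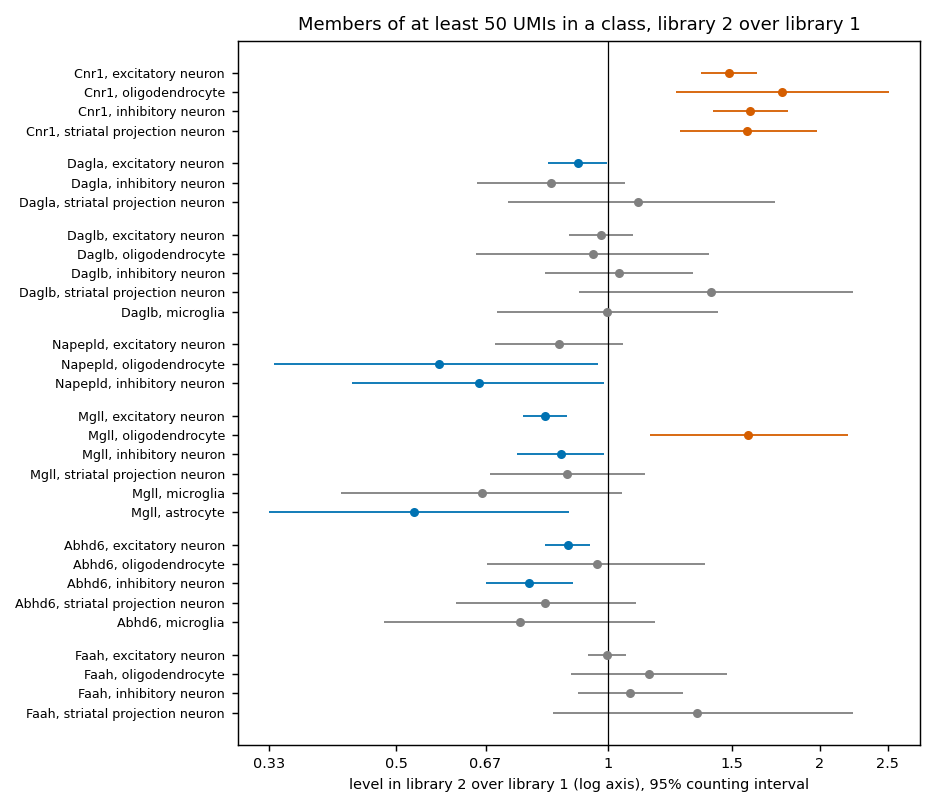
Level in library 2 divided by level in library 1 (x axis, log) with 95% counting intervals for the 30 pairs of member and class with at least 50 UMIs (rows), orange where the interval lies above 1, blue below and grey across it. All 4 Cnr1 rows lie above 1, between 1.49 and 1.77, and all 5 Abhd6 rows lie below 1.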

How the data were processed

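The labels' protocols describe nuclei isolated on an iodixanol gradient, 10x 3′ libraries and Illumina sequencing. The authors deposited 1 matrix of raw UMI counts. A filter on barcodes is not given in the sources used here. Cell Ranger 1.3.0, Seurat 3.1.4 and mm10 are listed in the submitters' processing notes. The header of the matrix gives software version 3.1.0. Barcode endings told the libraries apart.

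Barcodes with at least 500 genes were kept, and Scrublet doublets (10.8% in library 1, 6.19% in library 2) were removed with Scanpy 1.11.5, leaving 17927 of 20766 barcodes at a median of 2970 UMIs. Counts were scaled to 10000 per nucleus, log-transformed and clustered (3000 variable genes without the members, 50 components, 20 neighbours, Leiden resolution 1). Unnamed clusters of at least 60 nuclei were clustered again at 0.5, and neuron classes within themselves for subclasses. A name needed at least 3 markers and 50 nuclei.

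Levels are summed UMIs in every 1000000 (CPM) with exact Poisson 95% intervals, and ratios have exact conditional intervals. Both cover counting error only. The free RNA limit of a type is an index of Slc17a7 (in excitatory types, of myelin genes) times a ratio. That ratio is the upper 95% bound of the gene's count over the index, at its lowest among classes of at least 200000 UMIs. Shares were also computed for nuclei thinned to 600 UMIs, as an expectation. The rule was also run on simulated counts that held counting error only, and the outcome is not given here. All members were named, as were the 3 genes of each list with most UMIs and the genes with the highest correlation to each member, markers left out. One listed gene is counted but not reported here.

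The members and lists were chosen with earlier results of these data known. The scoring of neuron subclasses was the second of 2 tried, with Cnr1 per cluster in view. The first also gave a CCK group. The minimum of 50 nuclei, the free RNA index, the motifs and the pairs of types compared out of order were also set after seeing values.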

Additional observations from a re-analysis of the deposited data

How the results depend on the processing

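The counts of members with a clear highest type were recomputed with a minimum of 1000 genes, doublets kept, a doubled clustering resolution, the mean over nuclei, free RNA subtracted, each library alone, no UMI minimum and another fold. The 4 ratios and 14 levels below were recomputed under the first 7 of these, except that Daglb and Abhd6 in microglia had no value at 1000 genes, and the 7 shares without thinning. Other ratios were recomputed at most by library, and correlations not at all. The count with a clear highest subclass was 2 (Cnr1, Mgll) under all 9. The CCK group had 90 nuclei with doublets kept, 86 at double resolution, 53 in library 1 alone and 69 in library 2 alone. Being under 100 nuclei, it was left out of the count in these settings, where the Cnr1 call belongs to another subclass. The count with a clear highest class, 1 (Daglb), became 0 with a minimum of 1000 genes, where no microglia class remained, and 2 with library 1 alone (Daglb, Napepld), library 2 alone (Daglb, Mgll) or a fold of 1.5 (Daglb, Mgll), and 3 with free RNA subtracted (Daglb, Faah, Mgll). The ratio of Mgll in astrocytes to the next class, 1.92, was 0.959 with doublets kept and 1.26 at double resolution, both against differentiating oligodendrocytes. With free RNA subtracted it was 2.72. With library 1 alone it was 2.58 and with a minimum of 1000 genes 2.096, each with an interval above 1. Astrocytes had only 50 nuclei in library 1 and 89 at 1000 genes. Being under 100 nuclei, they were left out of both counts, so Mgll could not be called in astrocytes there. The ratio of Cnr1 in CCK to VIP interneurons, 3.93, was 4.84 with doublets kept and 4.79 at double resolution. In these 2 settings the CCK group was smaller than the 122 nuclei of the main analysis. Its level was 1368 and 1382 CPM, against 1130. The cause of these shifts was not tested. Daglb in microglia kept a ratio of 3.30 to 5.87 and Mgll in LAMP5 interneurons of 1.93 to 2.15. Of the 14 highest levels of single members, free RNA subtraction moved 10, library 1 alone 5, library 2 alone 4, doublets kept 3, the mean over nuclei 2, and 1000 genes and double resolution 1 each, and 6 of 7 shares moved without thinning. By over 1.5 times moved Napepld in oligodendrocytes (23.5, to 10.4 at 1000 genes and 14.2 with free RNA subtracted), Mgll in astrocytes (238, to 396 with library 1 alone), and, with free RNA subtracted, Abhd6 in microglia (131 to 65.4) and Daglb in deep-layer intratelencephalic neurons (45.0 to 29.6). No paired analysis was possible because neither library is tied to a group and each group has 1 library.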
